A study of Mus musculus with 16 samples.

Results

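Processed pseudogenes that were expressed in B16F10 melanoma tumours were described beside the genes they copy. A row of the deposited expression table was a member when its biotype was processed_pseudogene or transcribed_processed_pseudogene and its level reached 5 FPKM, a read level divided by gene length and scaled to depth, in at least 4 of the 16 libraries. This rule kept 309 of the 9773 processed pseudogenes in a table of 54532 genes, 286 of the first biotype and 23 of the second. The members were chosen by their FPKM values, so levels are given as a description with no test.

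B16F10 is an established mouse melanoma line, and the tumours grew under the skin of 8-week C57BL/6J mice of both sexes. Wild-type (WT) cells were compared with B16F10 cells deficient in Pros1, named BdP, where Pros1 codes for the secreted protein S. Treatment began 8 days after implantation and was PBS or cisplatin, a DNA-crosslinking drug, at 5 mg/kg into the abdomen once a day for 3 days in 2 rounds, and RNA came from whole end-stage tumours. Each of the 4 groups (WT PBS, WT cisplatin, BdP PBS, BdP cisplatin) had 4 libraries, named here by group and number. The labels do not say whether BdP is 1 clone or how the deficiency was made, and they do not say whether a library is 1 animal, so p-values measure the spread between these libraries.

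A processed pseudogene forms when the reverse transcriptase of a LINE-1 element copies a spliced messenger RNA and the copy is inserted elsewhere in the genome. The copy has no introns and lands without the parent's promoter, and ribosomal protein, glycolytic and other highly transcribed housekeeping genes have left many of them. A recent copy differs from the parent's messenger at few bases, so a short read from either can fit both, and a value listed for the copy can hold reads of the parent.

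The sequences show how little separates a member from its parent. Each pair below gives a stretch of the coding part, 5′ to 3′, from the GENCODE M21 transcripts (GRCm38), with the bases that differ in capitals. Dnajc19-ps is shown because it was the only member called in a comparison, and the stretch printed is chr7:103882706-103882855, minus strand.

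Dnajc19-ps: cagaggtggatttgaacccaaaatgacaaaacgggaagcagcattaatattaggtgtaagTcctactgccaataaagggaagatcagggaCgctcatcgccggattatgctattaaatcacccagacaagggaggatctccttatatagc
Dnajc19: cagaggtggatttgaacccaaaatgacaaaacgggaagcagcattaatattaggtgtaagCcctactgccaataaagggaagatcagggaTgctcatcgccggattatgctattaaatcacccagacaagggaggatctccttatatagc

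Counted from 1 at the pseudogene's 5′ end and with the parent's base first, these differences are C210T and T240C, 2 of the 3 in its 351 bases. Rps10-ps2 is shown because its parent was listed near 0, and the stretch printed is chr16:20822152-20822271, minus strand. In the coding part it differs from Rps10 at 5 bases, all in this stretch: T393C, T408C, C437G, A438G and G473A.

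Rps10-ps2: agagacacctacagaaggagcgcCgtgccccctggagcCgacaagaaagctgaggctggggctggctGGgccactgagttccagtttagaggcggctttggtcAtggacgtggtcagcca
Rps10: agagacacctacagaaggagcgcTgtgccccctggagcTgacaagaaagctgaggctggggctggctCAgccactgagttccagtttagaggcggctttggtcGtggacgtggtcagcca

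Gm9794 copies Rpl23 with a single difference over its 423 bases, C253T. The stretch printed is chr6:66875432-66875551, minus strand. The substitution makes an early stop codon in the parent's reading frame.

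Gm9794: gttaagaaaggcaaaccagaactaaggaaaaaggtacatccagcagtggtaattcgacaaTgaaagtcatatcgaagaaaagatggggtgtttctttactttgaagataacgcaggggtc
Rpl23: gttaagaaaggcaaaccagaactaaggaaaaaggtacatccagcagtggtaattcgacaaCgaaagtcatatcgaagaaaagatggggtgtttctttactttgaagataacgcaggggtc

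Rps12-ps9, whose level varied most against its parent among members whose symbol names one, differs from Rps12 by C78T and C117G in the stretch printed, chr8:123206659-123206778, plus strand.

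Rps12-ps9: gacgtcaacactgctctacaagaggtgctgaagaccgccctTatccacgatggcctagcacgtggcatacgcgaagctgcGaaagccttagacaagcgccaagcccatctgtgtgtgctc
Rps12: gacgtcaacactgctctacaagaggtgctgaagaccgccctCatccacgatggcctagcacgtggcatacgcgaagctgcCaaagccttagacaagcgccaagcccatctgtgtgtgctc

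Mpc1-ps differs from Mpc1 only by G41A over 330 bases, and the stretch printed is chr12:110858805-110858894, minus strand.

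Mpc1-ps: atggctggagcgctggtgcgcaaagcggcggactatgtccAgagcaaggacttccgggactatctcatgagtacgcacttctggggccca
Mpc1: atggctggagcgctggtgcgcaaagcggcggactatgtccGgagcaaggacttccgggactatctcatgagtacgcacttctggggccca

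Gm10123, the member with the highest level, is identical to the Ppia transcript over all its 490 bases, so 1 line stands for both. Its first 90 bases are on chr9:96895658-96895747, plus strand.

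Gm10123: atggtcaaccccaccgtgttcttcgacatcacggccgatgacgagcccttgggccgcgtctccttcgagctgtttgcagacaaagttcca

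**Figure D1:**
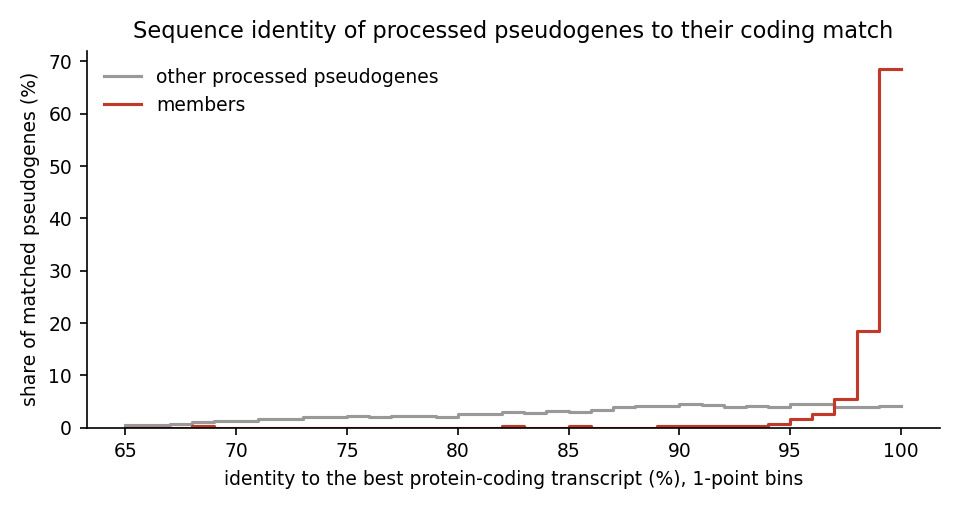
Share of processed pseudogenes (percent, vertical axis) at each identity to their best protein-coding transcript (percent, horizontal axis, 1-point bins, values under 65% in the first bin), for the 309 members and the 9300 other processed pseudogenes with a match. In the highest bin, from 99% up, lie 68.6% of the members and 4.23% of the others.

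The members were near copies. Their median identity to the best-matching coding transcript was 99.4%, against 88.3% for the 9300 of 9464 other processed pseudogenes that had a match. Of the members, 212 (68.6%) reached 99% identity, against 393 others (4.23%), and 53 members (17.2%) matched over their whole length without a difference, against 94 others (1.01%). Length did not separate them, with medians of 531 and 539.5 bases. Ribosomal protein genes were the best match of 110 members (35.6%) and of 24.0% of the others. These shares describe the rule's outcome, since shared reads can themselves lift a near copy over 5 FPKM.

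Little of a member's sequence was its own. In 59 of the 306 members of at least 100 bases, no window of 100 bases was absent from the transcripts of all other genes, and the median member had 34.6% of such windows to itself. Among the 10 members with the highest levels, Gm10123, Rps16-ps2 and Gm14303 had no such window. At the other end, Ldha-ps2, a copy of lactate dehydrogenase A at 94.5% identity, had 99.2%.

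Many copies kept an intact reading frame. In 173 members the parent's whole coding sequence could be aligned, and in 137 of these the frame ran from the start codon to the stop codon. The frame was broken in 26, by an early stop in 8 (Gm9794 among them) and by an insertion or deletion in 18, and 10 had insertions or deletions whose net length is a multiple of a codon, whose frame was not checked further. The median level was 17.5 FPKM for members with an open frame and 9.085 FPKM for those with a broken one, and Gm9794 at 360 FPKM had the highest level of the broken ones. It was 15.9 FPKM for the 135 members without the whole coding sequence aligned, and 8.7 FPKM for the 10 left unchecked. The member 2810025M15Rik gave no alignment with its match in the same orientation and is in none of these sets. The part of shared reads in these medians was not tested.

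The members were spread over 20 chromosomes, with 30 on chromosome 2, 28 on chromosome 7 and 21 each on chromosomes 1 and 6. In the annotation 287 had 1 exon, 88 lay inside the span of a protein-coding gene, and 21 were on the chromosome of their best match. Exons of another gene overlapped 9 members on the same strand and 6 on the opposite strand. Dnajc19-ps lies inside the span of the olfactory receptor gene Olfr66, and Rps12-ps9 lies inside the span of Chmp1a.

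Expression was broad. All 16 libraries reached 5 FPKM in 196 members, and 278 reached it in at least 1 library of every group, 30 in 3 groups and 1 in 2 groups. No member passed through 1 group alone, and all 309 passed the filter of the tests. Just inside the rule were Gm14292, whose fourth-highest library was at 5.04 FPKM, Gm3375 at 5.09 and Gm15590 at 5.10. Just outside were Gm8822 at 4.99, Gm12396 at 4.96 and Gm2423 at 4.96.

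Mean levels ran from 3.41 to 881 FPKM with a median of 15.6, and the 10 highest members carried 31.4% of the members' summed FPKM. The highest was Gm10123, the copy of Ppia, which codes for the prolyl isomerase cyclophilin A, at 881 FPKM. Others among them copy ribosomal protein genes: Rpl17-ps10 (427 FPKM) and Rpl17-ps3 (396) copy Rpl17, Gm9794 (360) copies Rpl23, Gm10275 (328) copies Rpl12, Gm6472 (321) copies Rps7, Rps16-ps2 (289) copies Rps16, Rps10-ps2 (275) copies Rps10 and Gm14303 (259) copies Rps29. Ribosomal protein copies as a class took 54.8% of the members' summed FPKM. Copies of translation factors (9 members), glycolytic enzymes (10), HMG proteins and abundant histones (13) and actin, tubulin and cyclophilin genes (6) took 4.60%, 2.54%, 1.87% and 8.67%.

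Behind these values stood 10051843 (WT PBS 1) to 27055771 (BdP cisplatin 1) recovered reads per library. The median member had 183 reads in its median library, 7 members had under 20, and 17 were shorter than 200 bases. WT PBS 1 stood apart: 76.9% of its reads were mitochondrial, against 2.03 to 21.7% elsewhere, and the members took 0.213% of its reads, against 0.590 to 0.933% elsewhere. Without mitochondrial and haemoglobin reads the members' share was 0.957% in WT PBS 1 and 0.667 to 1.02% elsewhere. Pros1 ranged from 4.79 to 11.5 FPKM in WT and from 1.23 to 2.52 FPKM in BdP. Melanoma genes were high in every library (10 genes summing to 5613 to 9763 FPKM). Leukocyte genes (12) summed to 25.8 to 304 FPKM in WT PBS, 57.7 to 216 in WT cisplatin, 123 to 547 in BdP PBS and 142 to 293 in BdP cisplatin. Red cell genes (7) summed to 8200 to 207198 FPKM in WT PBS and 54.8 to 9653 in WT cisplatin. In BdP they summed to 13262 to 64224 FPKM under PBS and 21.4 to 79831 under cisplatin. Fibroblast and endothelial genes (8) summed to 2.15 to 20.3 FPKM. No melanoma, leukocyte, red cell, fibroblast or endothelial marker was at 0 throughout a group, while 1 to 3 of 7 skin and muscle markers were. The part of these cells in the comparisons was not tested. In bulk tumours, fewer cells of a type and less RNA per cell cannot be told apart.

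**Figure D2:**
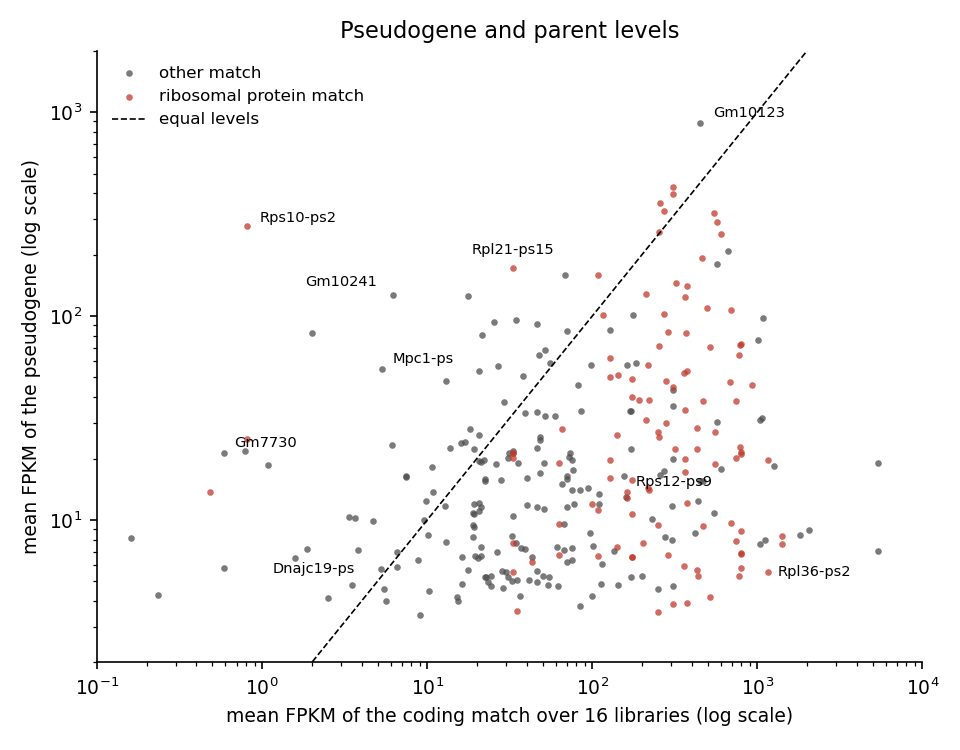
Mean FPKM of each member (vertical axis) against that of its best coding match (horizontal axis) over 16 libraries, both on log scales, with ribosomal protein matches in red. Most points lie under the dashed line of equal levels, and Rps10-ps2 (275 FPKM against 0.81 for Rps10) lies farthest above it.

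Parents could be named for 79 members from their symbols, 65 distinct genes, and in all 79 the named parent was also the best sequence match. For the other members the best-matching coding transcript stands in, which gives 228 distinct matches in all. The median member reached 22.4% of its match's FPKM (quartiles 7.33% and 64.2%, over the 308 pairs whose match was above 0), and the median of the 79 named pairs was 23.2%. Of the 309 members, 223 were below their match in every library, 34 were above it in every library and 59 were above it on average. Identical copies had a median of 42.2%.

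Copies of small ribosomal subunit genes mostly sat far under abundant parents. Rps16-ps2 reached 50.7% of Rps16, Rps19-ps6 35.6% of Rps19 and Rps13-ps2 18.5% of Rps13. Rpsa-ps10 reached 15.6% of Rpsa, which codes for the laminin-binding ribosomal protein, while Rpsa-ps2 reached 1.41%. Rps2-ps13 reached 9.18% of Rps2, Rps6-ps4 8.27% of Rps6, Rps25-ps1 3.76% of Rps25, Rps26-ps1 3.23% of Rps26 and Rps18-ps3 1.66% of Rps18. Rps13-ps1 stood at 5.17% of the parent that Rps13-ps2 shares.

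Copies of large subunit genes spanned a wider range. Rpl17-ps10 and Rpl17-ps3 stood at 138% and 128% of Rpl17, while Rpl17-ps5 stood at 14.6% and Rpl17-ps9 at 1.25%. Rpl21-ps15 stood at 516% of Rpl21 and was above it in all 16 libraries, where the FPKM of Rpl21 is divided by a listed length of 3400 bases and that of the copy by 483, while Rpl21-ps8 stood at 60.4% and Rpl21-ps10 at 23.2%. Rpl38-ps2 reached 60.5% of Rpl38, Rpl14-ps1 45.0% of Rpl14, Rpl36a-ps2 42.2% of Rpl36a, Rpl31-ps8 41.5% of Rpl31 and Rpl34-ps1 39.1% of Rpl34. Rpl23a-ps3 reached 34.2%, Rpl35a-ps2 30.2%, Rpl9-ps4 28.3%, Rpl7a-ps5 28.0%, Rpl28-ps1 22.3% and Rpl3-ps1 22.1% of their named parents. The low end held Rpl19-ps11 at 4.92%, Rpl36-ps12 at 1.70%, Rpl10-ps5 at 1.21% and Rpl36-ps2 at 0.480%.

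Outside the ribosome the named pairs were as varied. Mpc1-ps copies the mitochondrial pyruvate carrier gene Mpc1 and stood at 54.9 FPKM against 5.34 FPKM, 1028% of its parent, with listed lengths of 330 and 2082 bases. Pdcd5-ps, a copy of the apoptosis-related gene Pdcd5, stood at 367%, and Ndufab1-ps, a copy of the mitochondrial acyl carrier protein gene, at 218%. Sms-ps, a copy of spermine synthase, stood at 211%, and Ptges3-ps, a copy of the p23 co-chaperone gene, at 135%. Below their parents were Impdh2-ps (68.0% of the guanine nucleotide synthesis gene Impdh2), Gpx4-ps2 (35.7% of the lipid peroxidase gene Gpx4), Tpt1-ps3 (31.2% of Tpt1) and Oaz1-ps (4.42% of the ornithine decarboxylase antizyme gene Oaz1). Glycolytic copies were low where the symbol names a parent, with Pgam1-ps2 at 2.95% of Pgam1 and Ldha-ps2 at 0.718% of Ldha.

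Several of the pairs with the highest ratios turned on a parent listed near 0. Rps10, a core component of the small ribosomal subunit, had a mean of 0.808 FPKM and was listed at 0 in WT PBS 1, while Rps10-ps2 ran from 185 to 415 FPKM. Nme2 (0.588 FPKM), Rpl24 (0.485), Fdps (0.782) and Ube2v1 (0.161) were similar, and their copies Gm7730, Gm9385, Gm3571 and Gm8325 had means of 21.3, 13.7, 21.8 and 8.20 FPKM. In the annotation, 80.1% of the coding bases of Rps10 also lie in an exon of RPS10-NUDT3, a gene listed at 0 in every library. The shared parts were 100% for Nme2 (with Gm20390), 83.4% for Rpl24 (with Gm28037), 85.9% for Fdps (with Gm43738) and 77.0% for Ube2v1 (with Gm20431), and these 4 partners were also listed at 0. Of the 228 matches, 7 had at least 70% of their coding bases in exons of another gene, and the 9 members that copy them had a median of 2828% of their match, against 22.1% for the other pairs. The remaining 2 of the 7 were not near 0: Rpl13a shares 90.3% with Gm45713 and was at 35.2 FPKM, with its copy Gm11478 at 10.1% of it, and Ube2d2a shares 70.1% with AC141471.2 and was at 38.9 FPKM, with its copy Gm9762 at 18.5%. How the authors counted reads that fall on 2 genes is not given in the sources used here, and its part in these levels was not tested.

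Among other pairs with high ratios, chosen after their values were seen, Sumo2, Rpl21, Naca, Psma3 and Atp5g1 shared no coding base with another gene, and their copies Gm10241 (2053%), Rpl21-ps15 (516%), Gm6863 (233%), Gm13835 (278%) and Gm10039 (371%) were above them in all 16 libraries. Dynlt1c at 2.01 FPKM also shared no coding base, and its copy Dynlt1-ps1 was at 82.8 FPKM. Rasal2 at 1.09 FPKM shared no coding base either, and its matching member 2810025M15Rik was at 18.5 FPKM. That member gave no alignment with Rasal2 in the same orientation, so it is not called a copy. Gm10241 is identical to its stretch of Sumo2, which codes for a small ubiquitin-like modifier. Levels of this pair moved in opposite directions in 2 libraries: Sumo2 was at 29.9 FPKM in WT cisplatin 3 and 13.6 in BdP cisplatin 3, and from 2.95 to 5.08 in the other 14, while Gm10241 was at 78.5 and 85.4 in those 2 and from 113 to 193 in the others.

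The 5 members that copy Gapdh, a glycolytic dehydrogenase often used as a reference gene, showed the widest ratios to their match. Gapdh itself was listed at 154 FPKM in WT PBS 2, 185 in WT PBS 4, 205 in WT cisplatin 2 and 119 in BdP PBS 2. It was at 25.4 FPKM in BdP PBS 3 and between 2.90 and 8.40 in the other 11 libraries, so the split crossed the groups. In reads, Gapdh had 20806 in WT cisplatin 2 and 306 in WT PBS 3. Its 5 copies together ran only from 106 to 263 FPKM, and the most abundant, Gm7336 at 99.8% identity, from 59.2 to 119 FPKM. The standard deviation of the log2 ratio was 2.11 to 2.23 for the 5 copies, against a median of 0.34 over all pairs. Of the 228 matches, Gapdh and Sumo2 were among the few whose level moved widely: 2 matches had a highest library over 10 times a lowest one above 0, and 6 were listed at 0 in a library.

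Other pairs kept a nearly fixed ratio over all 16 libraries, whatever the group. The log2 ratio had a standard deviation of 0.07 for Gm6863 and Naca, for Gm9794 and Rpl23 and for Gm6136 and Rpl6, and of 0.08 for Gm10275 and Rpl12, for Gm10221 and Atp5l and for Gm6472 and Rps7. Gm9794 was at 712 FPKM where Rpl23 was at 556 (WT PBS 1), and at 284 where Rpl23 was at 212 (WT cisplatin 2). Gm10123 and Ppia, although identical over the copy, had a standard deviation of 0.96.

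**Figure D3:**
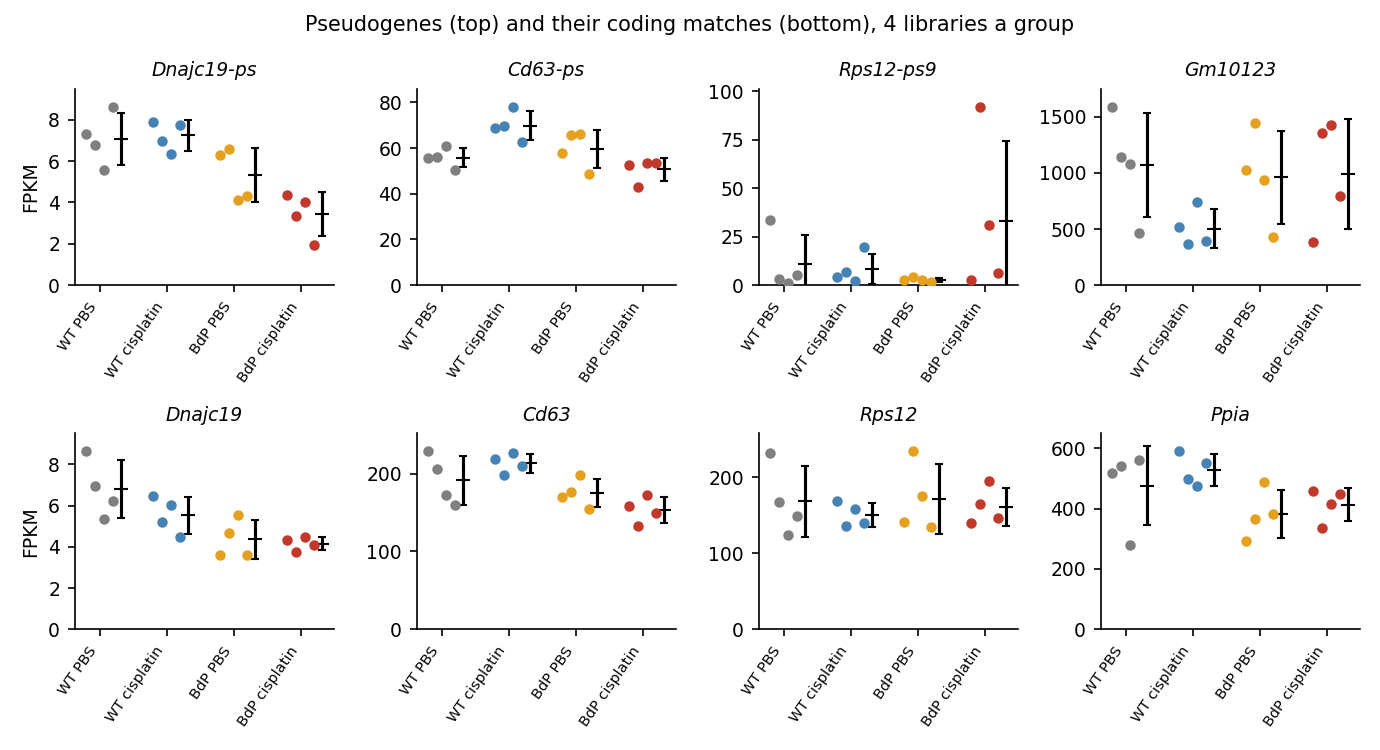
FPKM in each library (dots, 4 a group) with the mean and SD (bars) for Dnajc19-ps, Cd63-ps, Rps12-ps9 and Gm10123 above and their matches Dnajc19, Cd63, Rps12 and Ppia below. Dnajc19-ps sits between 1.95 and 4.37 in BdP cisplatin and between 6.32 and 7.90 in WT cisplatin, and Rps12-ps9 reaches 92.0 in 1 library.

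Gm10123 varied within every group. It was at 1590, 1141, 1077 and 464 FPKM in WT PBS, at 514, 363, 745 and 396 in WT cisplatin, at 1028, 1446, 939 and 432 in BdP PBS, and at 385, 1353, 1424 and 798 in BdP cisplatin. The groups overlapped throughout, although the WT cisplatin values lay at the low end. Rps12-ps9, copied from the small subunit gene Rps12, was at 92.0 FPKM in BdP cisplatin 2, 33.4 in WT PBS 1, 30.9 in BdP cisplatin 3 and 19.4 in WT cisplatin 4. The other 12 libraries lay between 1.18 and 6.65, while Rps12 ran only from 124 to 235 FPKM. Gm10736, a copy of Rpl41, was at 289 FPKM in WT PBS 1 and between 9.95 and 62.2 elsewhere, and Rps25-ps1 reached 58.2 FPKM in 1 library with a mean of 9.44. The steadiest member was Vcp-rs, a copy of the AAA ATPase gene Vcp, whose coefficient of variation was 8.20% (29.4 to 39.5 FPKM).

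Some genes left several expressed copies. Members fell into 49 families of at least 2 copies of the same match, which held 130 members. Rps2 had 7 members of 140 processed pseudogenes in the table that match it best, Rpl21 and Rpl7a 6 each (of 121 and 177), Gapdh and Hmgb1 5 each (of 235 and 146). Hmgb1 codes for an abundant DNA-bending chromatin protein, and its copies Gm5518, Gm13577, Gm5527, Gm15387 and Hmgb1-ps2 summed to 82.6 to 163 FPKM against 17.6 to 26.8 FPKM for Hmgb1, whose listed length is 5023 bases against 648 for Gm5518. Rbm3, which codes for a cold-inducible RNA-binding protein, had 3 members of only 6 copies, and Hnrnpa3 had 4 of 36. The 6 copies of Rpl21 summed to 178 to 451 FPKM, above Rpl21 (13.9 to 50.6 FPKM) in all 16 libraries.

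At the low end were copies of very abundant genes. Gm6548 and Gm13456, copies of the elongation factor gene Eef1a1, stood at 0.130% and 0.351% of a parent at 5412 FPKM. Pgk1-rs7 stood at 0.436% of the phosphoglycerate kinase gene Pgk1 although the 2 are identical over the copy, and Gm8399 at 0.738% of the actin gene Actg1. The member least like any coding transcript was Gm12250, at 68.5% identity to Gm5431. Gm12250 ran from 0.201 FPKM in WT cisplatin 4 to 17.3 in WT PBS 3, and its values in BdP cisplatin (1.81 to 12.1) lay above those in WT cisplatin (0.201 to 1.28), with a log2 difference of 1.66 (SE 0.72, adjusted p = 0.326 by limma).

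**Figure D4:**
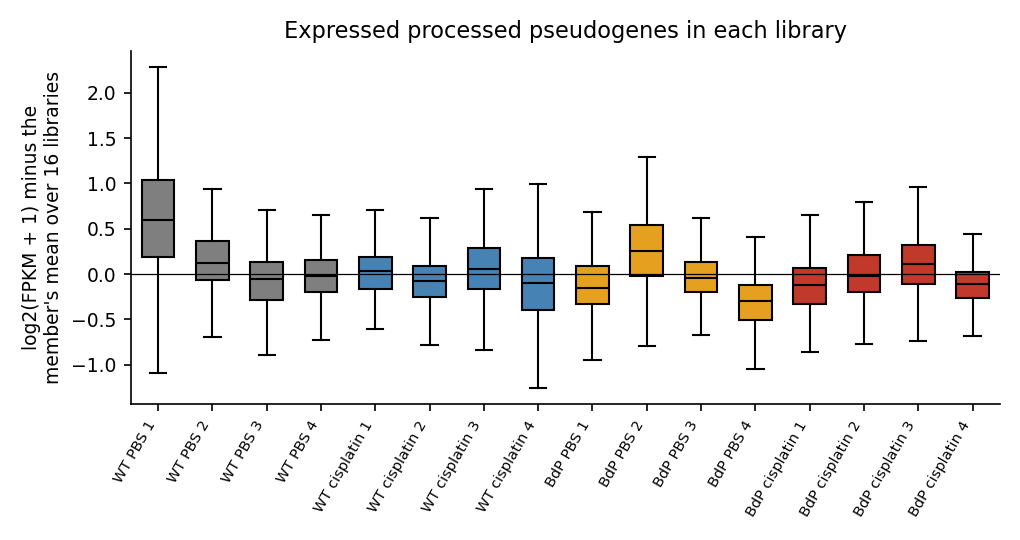
Log2(FPKM + 1) of the 309 members minus each member's own mean over 16 libraries, as boxes (median and quartiles, whiskers to 1.5 interquartile ranges) for each library, coloured by group. WT PBS 1 stands highest, with a median of 0.59, and BdP PBS 4 lowest, with a median of -0.30.

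One library held the highest level of most members. WT PBS 1 was the highest of 16 libraries for 161 of the 309 members, and its median member stood 0.59 above its own mean on the log2(FPKM + 1) scale. The coding matches stood 0.42 above theirs in the same library. The members' levels there rest on fewer reads, 21440 in WT PBS 1 against 74710 to 213037 in the other libraries. BdP PBS 2 was the highest for 44 members (median 0.26, matches 0.15), and BdP PBS 4 was the lowest on average (median -0.30, matches -0.28). For the comparisons that use WT PBS, the members' medians, the counts of higher and lower members and the changes of the members with the smallest p are given below with and without WT PBS 1; other values are with all libraries.

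Each comparison was tested with limma on log2(FPKM + 1) over the 12319 genes that reached 1 FPKM in at least 4 libraries, with p-values adjusted over all of them by the Benjamini-Hochberg method. A gene is called at an adjusted p below 0.05. Log2 differences are on the log2(FPKM + 1) scale, which understates changes of low genes. The comparisons share groups, so their results are not independent of each other. Rescaling every library to the same sum (TPM) moved the median change of all genes to 0.65 for cisplatin in WT, 0.76 for BdP under PBS and -0.61 for the interaction, and the members' medians to 0.65, 0.71 and -0.58, so the sign of a small change in these comparisons depends on the scaling.

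**Figure D5:**
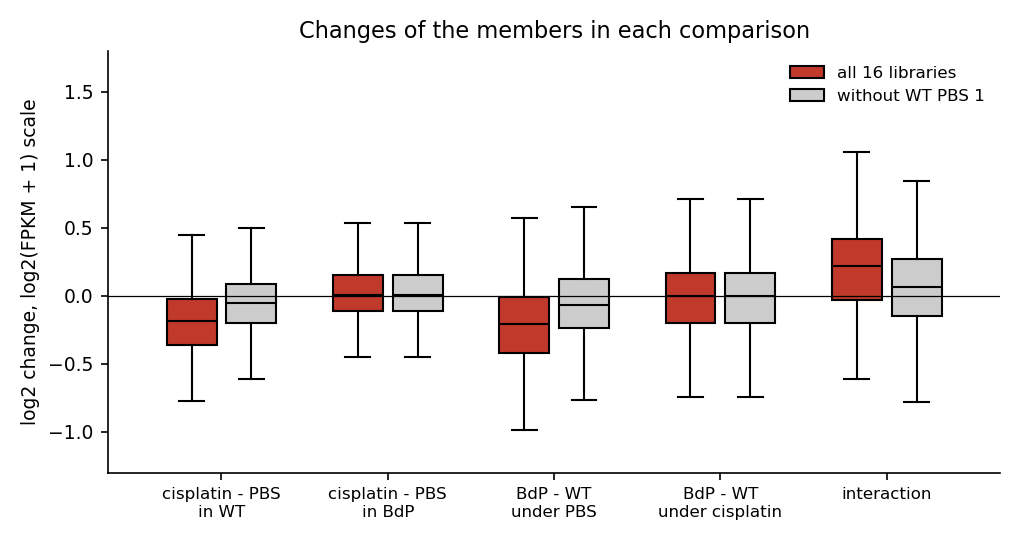
Log2 changes of the 309 members on the log2(FPKM + 1) scale in each comparison, as boxes (median and quartiles, whiskers to 1.5 interquartile ranges), with all 16 libraries (red) and without WT PBS 1 (grey). The medians of the comparisons that use WT PBS move from -0.19 to -0.05, from -0.21 to -0.07 and from 0.22 to 0.06.

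The first comparison asked what cisplatin changed in WT tumours. No member was called in either direction, and 0.00812% of all genes tested were called, which is 1 gene, higher. By unadjusted p below 0.05 there were 27 members (8.74%), against 7.74% of all genes. With limma-voom on recovered reads 0 members and 3 of all genes were called. Values were lower under cisplatin for 240 members, with a median log2 change of -0.19, beside -0.01 for all genes tested. Without WT PBS 1 the median was -0.05 and 177 members were lower. Groups did not overlap for 8 members that were lower under cisplatin (2.59%, against 1.49% of all genes) and 2 that were higher (0.647%, against 1.75%).

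The smallest p in this comparison belonged to Rpl30-ps10, a copy of the large subunit gene Rpl30. It was at 73.8, 29.7, 21.4 and 23.1 FPKM in WT PBS and at 6.44, 6.82, 15.6 and 15.0 in WT cisplatin, so the groups did not overlap. The log2 difference was -1.58 (SE 0.47) with an adjusted p of 0.548 by limma, and without WT PBS 1 it was -1.20 (adjusted p = 0.873 by limma). In BdP the copy was at 9.25, 26.0, 10.3 and 8.65 under PBS and at 10.7, 15.1, 8.71 and 33.4 under cisplatin, which overlap. Rpl30 itself was at 105 to 234 FPKM in WT PBS and 102 to 162 in WT cisplatin. Next were Ap3s1-ps1, a copy of an AP-3 adaptor subunit gene (-0.77, SE 0.24, adjusted p = 0.553 by limma), and Ywhaq-ps3, a copy of the 14-3-3 theta gene (-0.48, SE 0.17, adjusted p = 0.596 by limma), whose exon overlaps Cdk5rap2 on the same strand. Without WT PBS 1 their log2 differences were -0.54 and -0.37.

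The same question in BdP tumours gave no called member and no called gene (0% of 12319). By unadjusted p there were 12 members (3.88%), against 4.40% of all genes, and limma-voom also called 0 members and 0 of all genes. Values were higher for 160 members and lower for 149, with a median of 0.01. Groups did not overlap for 4 members that were higher (1.29%, against 2.48% of all genes) and 1 that was lower (0.324%, against 1.94%). Gm48583, a 220-base identical copy of part of Rbm3, had the smallest p: it was at 45.9, 61.0, 75.5 and 55.7 FPKM under PBS and 99.8, 115, 83.1 and 68.1 under cisplatin (0.61, SE 0.19, adjusted p = 1 by limma). The groups overlapped. Gm13910, a copy of the mitochondrial fatty acid oxidation gene Hadhb, was at 20.2 to 25.1 under PBS and 28.4 to 30.9 under cisplatin, with no overlap (0.40, SE 0.14, adjusted p = 1 by limma).

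Between BdP and WT tumours under PBS no member was called, while 0.99% of all genes were (0.414% higher and 0.576% lower). By unadjusted p there were 44 members (14.2%), against 19.3% of all genes. Limma-voom on recovered reads called 0 members and 123 of all genes. Of the count models run on the same reads but not kept among the results, edgeR called none and DESeq2 called Gm48583, Gm45855, Gm13835 and Gm7332. No share of all genes is at hand for these models, so their calls have no background here. Values were lower in BdP for 234 members, with a median of -0.21 beside 0.01 for all genes, and without WT PBS 1 for 181, with a median of -0.07. The groups did not overlap for 14 members, all lower in BdP (4.53%, against 4.32% of all genes in that direction and 3.36% in the other).

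Copies of Rbm3, Rps2 and Gapdh had the smallest p under PBS. Gm48583 was at 116, 74.1, 91.7 and 118 FPKM in WT PBS and 45.9, 61.0, 75.5 and 55.7 in BdP PBS, a log2 difference of -0.74 (SE 0.19, adjusted p = 0.0841 by limma) with 1 BdP library inside the WT range. Rbm3, its match, was at 66.0 to 107 in WT PBS and 45.3 to 66.3 in BdP PBS. Gm45855, a copy of Rps2, was at 50.6, 22.8, 21.1 and 24.5 in WT PBS and 12.0, 20.6, 17.0 and 10.4 in BdP PBS (-0.90, SE 0.25, adjusted p = 0.107 by limma), with no overlap. Gm13394, a copy of Gapdh, was at 10.9 to 19.5 in WT PBS and 6.50 to 12.0 in BdP PBS (-0.61, SE 0.17, adjusted p = 0.107 by limma). Without WT PBS 1 the log2 differences were -0.66 for Gm48583, -0.62 for Gm45855 and -0.47 for Gm13394, with adjusted p of 0.165, 0.187 and 0.219 by limma. Others without overlap were Hspd1-ps3, a copy of the mitochondrial chaperonin gene Hspd1 (-0.54), Itpa-ps1 (-0.99), Ptges3-ps (-0.30) and Pdcd5-ps (-0.63), with adjusted p of 0.124, 0.136, 0.166 and 0.182 by limma.

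Between BdP and WT tumours under cisplatin 1 member was called, Dnajc19-ps, lower in BdP, and 1.07% of all genes were called (0.722% lower and 0.349% higher). By unadjusted p there were 14 members (4.53%), against 13.8% of all genes. The median member did not differ (0.00), with 155 higher and 154 lower. Groups did not overlap for 9 members that were lower in BdP (2.91%, against 6.60% of all genes) and 8 that were higher (2.59%, against 6.41%).

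Dnajc19-ps copies Dnajc19, which codes for a DnaJ co-chaperone of the mitochondrial protein import motor. The pseudogene was at 7.90, 6.98, 6.32 and 7.76 FPKM in WT cisplatin and at 4.37, 3.34, 4.04 and 1.95 in BdP cisplatin, and every BdP library was below every WT library. Its log2 difference was -0.93 (SE 0.19, adjusted p = 0.0285 by limma). Under PBS it was at 7.29, 6.78, 5.57 and 8.63 in WT and at 6.31, 6.61, 4.11 and 4.33 in BdP, which overlap (-0.36, SE 0.19, adjusted p = 0.306 by limma). The difference between the genotype effects under the 2 treatments was -0.57 (SE 0.27, adjusted p = 0.835 by limma).

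Dnajc19, the parent, was at 6.49, 5.20, 6.02 and 4.46 FPKM in WT cisplatin and at 4.32, 3.76, 4.47 and 4.09 in BdP cisplatin, with a narrow overlap (-0.33, SE 0.15, adjusted p = 0.339 by limma). The log2 ratio of pseudogene to parent was 0.34 ± 0.26 (SD, n = 4) in WT cisplatin and -0.26 ± 0.36 (SD, n = 4) in BdP cisplatin, a change of -0.60. Dnajc19-ps was singled out by these same libraries, so this ratio is given as a description, with no test. The values rest on few reads: 77, 60, 46 and 32 in WT cisplatin and 49, 27, 30 and 15 in BdP cisplatin. Of the windows of 100 bases in Dnajc19-ps, 62.3% are in no transcript of another gene.

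The call rested on the setting, and neither edgeR nor DESeq2, both run but not kept among the results, made it. The adjusted p was 0.0854 with limma-voom on recovered reads, 0.0588 with no filter and 1 after rescaling to TPM, and the log2 difference stayed between -1.11 and -0.75 in every setting tried. It was above 0.05 without WT cisplatin 1 (0.105), WT cisplatin 3 (0.0582), WT cisplatin 4 (0.103), BdP cisplatin 2 (0.0733) or BdP cisplatin 4 (0.0828), and without the 3 libraries richest in mitochondrial reads (0.162).

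Cd63-ps had the next smallest p under cisplatin and tracked its parent. It copies Cd63, a tetraspanin of endosomes and melanosomes, at 98.0% identity, and has 73.7% of its windows of 100 bases to itself. It was at 68.8, 69.7, 78.1 and 62.6 FPKM in WT cisplatin and at 52.6, 42.9, 53.4 and 53.6 in BdP cisplatin, with no overlap (-0.46, SE 0.12, adjusted p = 0.0754 by limma, 0.0562 by limma-voom). Cd63 was at 219, 198, 227 and 209 in WT cisplatin and at 159, 133, 172 and 150 in BdP cisplatin, also with no overlap (-0.48, SE 0.13, adjusted p = 0.0952 by limma). Under PBS the pseudogene was at 50.5 to 60.9 in WT and 48.7 to 66.1 in BdP, which overlap.

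Members higher in BdP under cisplatin with no overlap included Gm5424, a copy of the arginine synthesis gene Ass1 (0.94, SE 0.26, adjusted p = 0.118 by limma), Gm13910 (0.42, adjusted p = 0.211 by limma) and Ap3s1-ps1 (0.56, adjusted p = 0.319 by limma). Gm8394, a copy of the proteasome subunit gene Psma5, was lower, at 10.4, 7.59, 7.50 and 7.42 FPKM in WT cisplatin and 5.79, 3.88, 5.06 and 6.33 in BdP cisplatin (-0.56, SE 0.15, adjusted p = 0.107 by limma). Ap3s1-ps1 was at 2.79 to 4.44 FPKM in WT cisplatin and 4.57 to 8.56 in BdP cisplatin.

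Whether cisplatin acted differently in BdP and WT was tested by the interaction, which called no member and no gene (0%). By unadjusted p there were 17 members (5.50%), against 5.61% of all genes, and limma-voom called 0 members and 1 of all genes. The median interaction was 0.22, with 223 members above 0, and without WT PBS 1 it was 0.06 with 176 above 0. The smallest p belonged to Cd63-ps (-0.54, SE 0.16), AC121151.1, a copy of Rpl7a (1.79, SE 0.55), and Hspd1-ps3 (0.73, SE 0.23), each with an adjusted p of 0.835 by limma. Without WT PBS 1 these were -0.54, 1.53 and 0.63, each with an adjusted p of 0.871 by limma. AC121151.1 was at 35.9, 22.4, 19.4 and 11.3 FPKM in WT PBS, 13.3, 12.7, 16.5 and 4.27 in WT cisplatin, 13.3, 13.5, 5.87 and 7.17 in BdP PBS and 24.6, 17.0, 13.0 and 20.5 in BdP cisplatin.

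The parents' own gene groups gave few calls. Of 81 tested coding genes of the cytosolic ribosome, 0 were called in any of the 5 comparisons, and the same held for 17 translation factors, 14 glycolytic enzymes and 13 actin, tubulin and cyclophilin genes. Of 12 HMG protein and histone genes, H2afz was called lower in BdP under PBS. Ribosomal protein genes had median changes of -0.13 for cisplatin in WT and -0.18 for BdP under PBS, and their copies had medians of -0.23 and -0.20. Glycolytic genes and their copies mostly had values above 0 for cisplatin in BdP. These were 13 of 14 genes (median 0.23) and 9 of 10 copies (median 0.19), against 49.3% of all genes tested. Gapdh was the match of 5 of the 10 copies, and its own log2 change was -1.61 (SE 1.41).

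No coding match of a member was called in any comparison. Over the 302 pairs with both partners tested, member and match changed with the same sign in 218 pairs for cisplatin in WT, 172 for cisplatin in BdP, 233 for BdP under PBS, 205 for BdP under cisplatin and 198 for the interaction. Pearson's r of their log2 changes across pairs was 0.32, -0.01, 0.33, 0.36 and 0.19 in that order. Among the 79 named pairs it was 0.26, 0.07, 0.17, 0.55 and 0.14. These values are across genes, which are not independent, and partners can share reads and always share libraries.

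Among symbols of this kind that the rule left out, Pcna-ps2 and Stxbp3-ps were of interest for their differences between groups. Pcna-ps2, named for the replication clamp gene Pcna, is listed as protein-coding and so was not a member. It was at 2.02 to 5.05 FPKM in WT PBS, 0.745 to 2.38 in WT cisplatin, 7.89 to 10.6 in BdP PBS and 6.46 to 9.84 in BdP cisplatin, while Pcna overlapped between all groups at 81.2 to 153 FPKM. Stxbp3-ps, under 5 FPKM throughout, was at 0.311 to 0.579 FPKM in BdP cisplatin and 1.05 to 2.10 elsewhere. Against WT, Pcna-ps2 was called higher in BdP under PBS (1.27, adjusted p = 0.0199 by limma) and under cisplatin (1.85, adjusted p = 0.000865 by limma). Stxbp3-ps was called lower in BdP than in WT under cisplatin (-0.69, adjusted p = 0.0319 by limma). For cisplatin against PBS in BdP, Stxbp3-ps was not called (-0.93, adjusted p = 0.0839 by limma). Both genes were picked with such differences known.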

How the data were processed

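RNA was sequenced from 16 tumours' libraries in 4 groups of 4. Per the submitters' processing notes, CASAVA, HISAT2 2.0.5 and featureCounts 1.5.0-p3 were used on GRCm38 (mm10). How reads with several hits, on 2 genes or by strand were counted is not given in the sources used here. The authors deposited FPKM per gene with its length in bases. A read is worth a fixed step per library, so whole reads were recovered (100% of values within 0.1 read). That step follows a size factor rather than the library's own total. The length listed for a coding gene can exceed that of its spliced copy (4133 bases for Gapdh, 1232 for Gm7336), which lowers its FPKM against the copy.

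Levels were compared on log2(FPKM + 1) with limma 3.58.1 (R 4.3.3; genes at 1 FPKM or more in at least 4 libraries; all 16 libraries, 4 group means, trended variance). The script was tested on simulated data. Alternatives were a pseudocount of 0.1, no filter, limma-voom on recovered reads (chosen after seeing the data), rescaling to TPM, the replicate number as a block, leaving out each library, leaving out the 3 libraries richest in mitochondrial reads, and a member rule of 10 FPKM. Matches came from BLAST 2.17.0+ of GENCODE M21 transcripts (e-value 1e-10). Positions are 1-based on GRCm38.

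Named genes were every called member, the 10 highest, the 3 with the smallest p in each comparison, Pcna-ps2, Stxbp3-ps, members whose symbol names a parent and members nearest the threshold; others, such as pairs with extreme ratios, were chosen after their values were seen. One of the 10 highest is not reported here. Members and gene lists were chosen with earlier results of these data known. Replicate numbers did not pair libraries: same-numbered deviations correlated from -0.61 to 0.42.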

Additional observations from a re-analysis of the deposited data

Results flagged for a closer look

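Of 96 sets of 4 libraries examined, 8 held a library far from the other 3 of its group by Dixon's test, where chance gives about 1 in 20. WT PBS 1 was high for Rpl30-ps10 (73.8 FPKM, others 21.4 to 29.7) and Gm45855 (50.6, others 21.1 to 24.5). BdP PBS 2 was high for Rps16-ps2 (488, others 242 to 283) and Rpl30-ps10 (26.0, others 8.65 to 10.3). BdP cisplatin 3 was high for Gm14303 (454, others 281 to 292) and Ap3s1-ps1 (8.56, others 4.57 to 4.98). WT cisplatin 1 was high for Gm8394 (10.4, others 7.42 to 7.59). BdP cisplatin 2 was low for Cd63-ps (42.9, others 52.6 to 53.6).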

How the results depend on the processing

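The number of the 309 members called for cisplatin in WT, for cisplatin in BdP and for the interaction stayed 0 under every alternative reported here. Stxbp3-ps, no member, was called for cisplatin in BdP with a pseudocount of 0.1 (adjusted p = 0.0421 by limma) and without WT PBS 2 (0.0431). For BdP against WT under PBS, 0 to 2 members were called over the leave-one-out fits, beside 25 to 356 of all 12319 genes. There was 1 member without WT PBS 2 (123 genes called) and 2 without WT PBS 3 (356 genes called). Under cisplatin 0 members were called with the rule of 10 FPKM (132 of all genes called) and with no filter (106). The same held with TPM (21) and with limma-voom on recovered reads (231). Over the leave-one-out fits 0 to 1 members were called, beside 50 to 310 of all genes. Where a leave-one-out fit called 1 member under cisplatin, it was Dnajc19-ps. A pseudocount of 0.1 also called Dnajc19-ps (adjusted p = 0.0331 by limma), among 130 genes called. Without the 3 libraries richest in mitochondrial reads, the only member called under cisplatin was Gm10145 (1.32, adjusted p = 0.0411 by limma). In that fit 55 of all genes were called. The replicate block left 1 member called under cisplatin (Dnajc19-ps, adjusted p = 0.048 by limma) and changed no other call among the members. With the block, 80 of all genes were called under cisplatin. The ratio of Dnajc19-ps to Dnajc19 changed by -0.69 to -0.42 when 1 library was left out. TPM, which moved the median of all genes to 0.76 and 0.65 in the next 2 comparisons, turned the sign for Gm13394 (0.29), Gm45855 (0.052) and Gm48583 (0.25) in BdP against WT under PBS and for Stxbp3-ps (0.32) and Ywhaq-ps3 (0.30) for cisplatin in WT; each stayed below that median. Stxbp3-ps in BdP against WT under PBS ran from -0.039 (without WT PBS 2) to 0.16 over the leave-one-out fits. The cause was not tested. The planned count models were run on the recovered reads but are not part of the results, because the deposited unit is FPKM. edgeR called no member, while DESeq2 called Gm48583, Gm45855, Gm13835 and Gm7332 for BdP against WT under PBS and Cd63-ps, not Dnajc19-ps, under cisplatin. The share of all genes called by these models is not given here, so their calls cannot be set beside a background. Limma-voom, chosen after seeing the data, takes their place. Low read counts limit the faintest members, and reads shared by near-identical copies limit all levels.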
